A study of Mus musculus with 6 samples.

Results

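The calcium channels, calcium stores and calmodulin kinases of the cerebellum were examined as 42 genes of the 53715 in the deposited table. The genes were taken by name, by their role in moving or sensing calcium, and each of the 42 matched a single entry. RNA was prepared from the whole cerebellum of 3 control mice and 3 *Slc39a8*-NSKO mice (NSKO mice hereafter), all males that were 4 weeks old, of a strain given as C57BL/6 in the labels and as C57BL/6J in the methods. *Slc39a8* encodes a membrane transporter of manganese, zinc and iron, and in *Slc39a8*-NSKO mice the floxed gene is removed by a Cre recombinase that the synapsin promoter drives in neurons. The deletion is therefore aimed at neurons and not at glia or blood vessels. The labels call the control mice WT, while the study's methods describe *Slc39a8* fl/fl mice as controls, and which of these they were cannot be told from the counts. The study's methods speak of 3 mice per genotype as biological replicates, whereas a figure legend speaks of technical triplicates. If the latter holds, the p values below measure technical spread.

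Neurons let calcium in through voltage-gated channels, built from a pore-forming subunit with beta and alpha2delta partners, and release more of it from the endoplasmic reticulum through IP3 receptors and ryanodine receptors. Pumps and exchangers return the calcium to the store or to the outside, and calmodulin passes the signal on to the calmodulin-dependent kinases. Purkinje cells, the output neurons of the cerebellar cortex, are a classical site of P/Q-type channels and of the type of IP3 receptor that *Itpr1* encodes, and CaM kinase IV, which *Camk4* encodes, phosphorylates the transcription factor CREB in the nucleus.

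No gene of the 42 passed the test between genotypes, and the levels of nearly all of them were close in the 6 mice. The edgeR quasi-likelihood test, adjusted by Benjamini-Hochberg over 16330 genes, gave adjusted p values from 0.8665 upwards for the members, where 16 of all genes tested (0.0980%) were below the threshold of 0.05. All 42 members were tested. By unadjusted p, 2 members were below 0.05, *Cacna1g* and *Itpr1*, beside 881 (5.39%) of all genes tested, so that the members' share was near the background. The genotypes did not overlap in 4 members, which held for 1687 (10.3%) of all genes tested. These were *Cacna1g* and *Stim1*, higher in NSKO mice, and *Cacna2d1* and *Camkk1*, lower in them. The log2 fold change (NSKO minus control) was above 0 in 24 of 42 members, or 57.14%, beside 50.48% of all genes tested, and its median was 0.04 beside 0.00. With a mouse left out the median over the members ranged from 0.01 to 0.05. In bulk tissue, fewer cells of a type and less RNA per cell cannot be told apart.

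The size of the differences that these data allow was bounded by the 95% intervals of the fit. For all 42 members the interval of the fold change lay within 1.5-fold in either direction, and for 38 of them it lay within 1.3-fold. The intervals of *Cacna1h*, *Itpr1*, *Orai1* and *Slc8a1* reached beyond 1.3-fold. The log2 fold changes ran from -0.16 for *Cacnb1* to 0.21 for *Itpr1*, with a median standard error of 0.07. The median absolute log2 fold change was 0.06 over the members, and it was 0.06 over the 12226 genes tested whose mean level lay in the members' range.

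**Figure D1:**
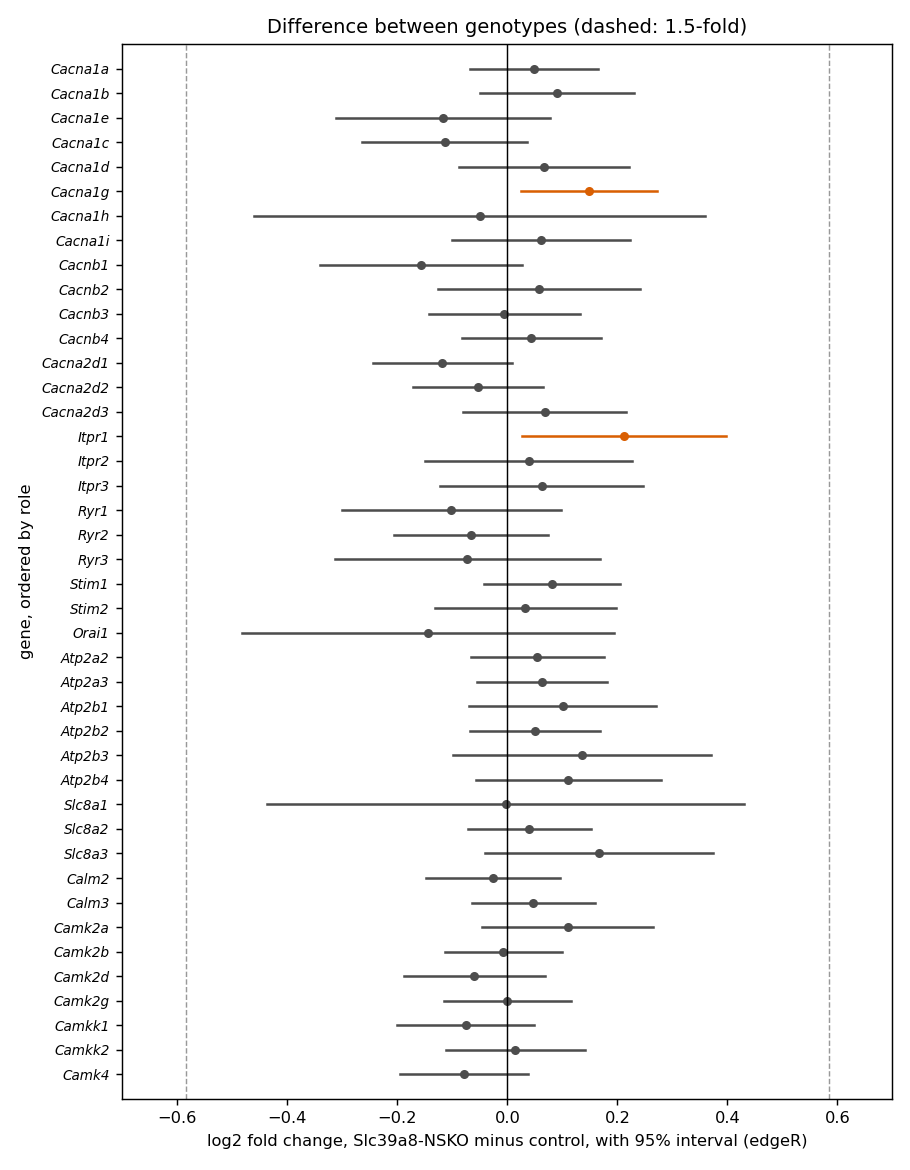
Log2 fold change of each of the 42 genes, NSKO minus control, from the edgeR fit on 3 mice per genotype. Points are estimates and bars their 95% intervals, ordered from top to bottom by role, with dashed lines at 1.5-fold. The 2 genes with an unadjusted p below 0.05 are in orange, and every bar lies inside the dashed lines.

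The libraries held 14431260 to 20844267 counts on genes per mouse, and the count of a member in a mouse ranged from 51 to 58952. The targeted gene *Slc39a8* was at 4.78, 3.20 and 2.83 CPM (counts scaled to library size, TMM) in control mice 1 to 3 and at 1.90, 2.05 and 2.18 CPM in NSKO mice 1 to 3. Each NSKO mouse was thus below each control mouse, with a log2 fold change of -0.83 (SE 0.24), and the adjusted p of 0.5342 missed the threshold. The summed CPM of 6 Purkinje cell markers was 2805 to 2862 in control and 2700 to 3045 in NSKO mice, and that of 6 granule cell markers was 4721 to 4953 and 4668 to 5084.

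Between genes, levels were compared only per length, as CPM divided by the kilobases of all annotated exons of the gene (CPM per kb). On this scale the members spanned from 0.395 for *Cacna1h* to 861 for *Calm2*, as means over 6 mice. The 5 highest were *Calm2*, *Calm3*, *Camk4*, *Atp2a2* and *Itpr1*, that is calmodulin, a nuclear kinase, the pump that fills the store and the channel that empties it.

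**Figure D2:**
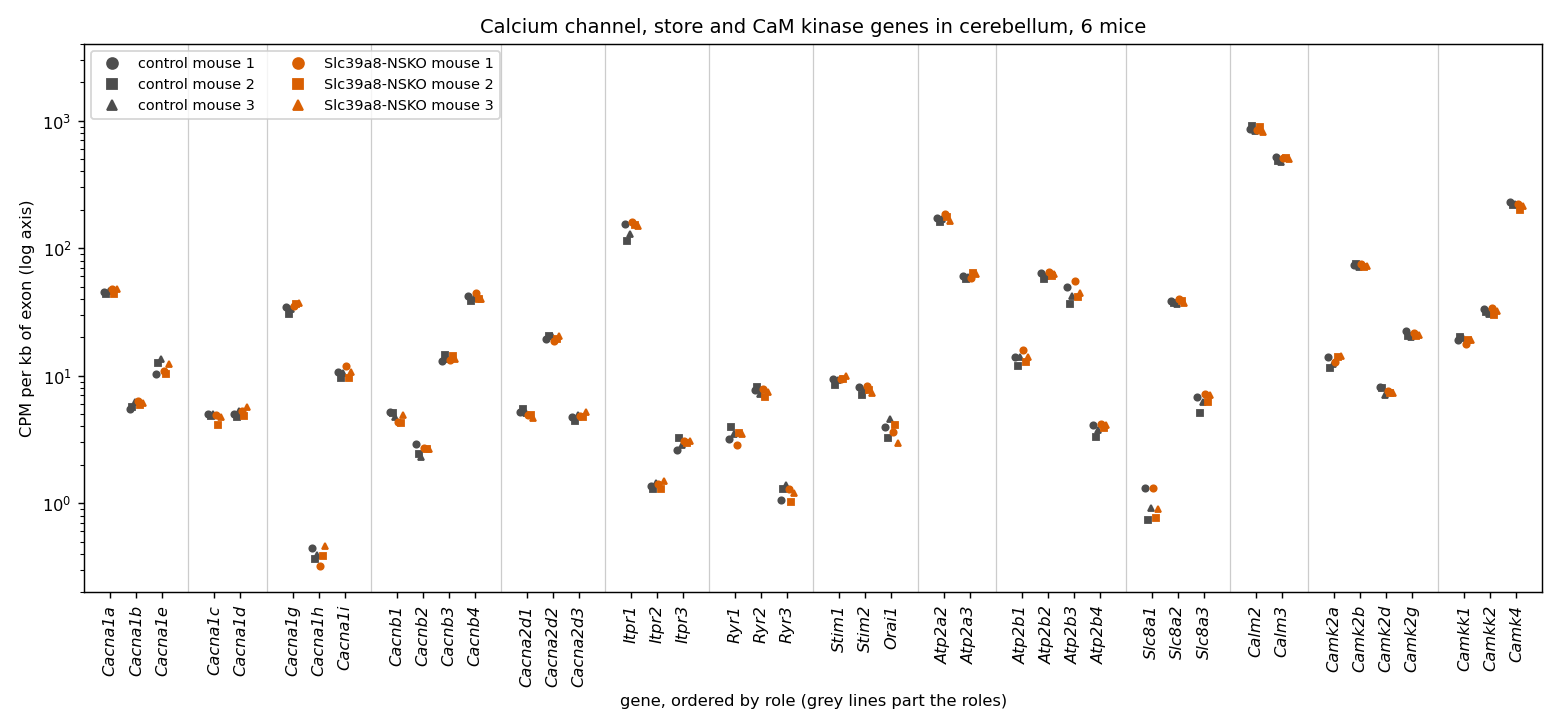
Level of each of the 42 genes in each of 6 mice, in CPM per kb of exon on a log axis, ordered by role. Grey symbols are control mice and orange symbols NSKO mice. The genes range from 0.395 (*Cacna1h*) to 861 (*Calm2*), while the symbols of one gene mostly lie on top of each other.

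Among the pores, *Cacna1a*, which encodes the P/Q-type channel that triggers transmitter release, had the highest level. Its CPM was 515.7, 496.5 and 528.2 in control mice 1 to 3 and 547.5, 499.7 and 545.9 in NSKO mice 1 to 3, and the genotypes overlapped (log2 fold change 0.05, SE 0.05). It made up 38.7% ± 0.30 (SD, n = 3) of the summed level per kb of the 8 pore genes in control mice and 38.4% ± 0.61 in NSKO mice. *Cacna1g*, a T-type channel that opens near the resting potential, followed with 28.1% ± 1.25 and 30.0% ± 1.49. *Cacna1e* of the R-type channel and *Cacna1i*, another T-type channel, made up 10.5% and 8.87% in control mice, and the N-type gene *Cacna1b* and the L-type genes *Cacna1c* and *Cacna1d* 4.96%, 4.26% and 4.31%. *Cacna1h*, the remaining T-type gene, was at 0.345% and rested on 51 to 90 counts per mouse.

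*Cacna1g* was the member with the lowest p. It was at 348.7, 306.9 and 338.5 CPM in control mice 1 to 3 and at 354.6, 368.0 and 379.9 CPM in NSKO mice 1 to 3. The lowest NSKO mouse lay just above the highest control mouse, and the fold was 1.11 (95% interval 1.02 to 1.21). The log2 fold change was 0.15 (SE 0.06, edgeR unadjusted p = 0.022, adjusted p = 0.8665), and it was 0.10 without control mouse 2, the lowest of the 6, with an unadjusted p of 0.108. The gene lies on chromosome 11, 94408391 to 94474198, minus strand (GRCm38), and no exon of another gene overlaps its exons. The other T-type genes had log2 fold changes of 0.06 (*Cacna1i*) and -0.05 (*Cacna1h*).

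The other pores gave log2 fold changes of 0.09 for *Cacna1b*, 0.07 for *Cacna1d*, -0.11 for *Cacna1c* and -0.12 for *Cacna1e*, none past the test. Per kb of all exons, *Cacna1d* was the higher of the L-type genes (mean of 5.14 CPM per kb beside 4.76). Divided by the longest transcript, *Cacna1c* was the higher (7.67 beside 6.71). *Cacna1d* was at 62.7, 60.2 and 67.1 CPM in control and 66.4, 60.8 and 71.8 CPM in NSKO mice, and the genotypes overlapped. *Cacna1e* was at 260.4, 320.1 and 340.9 CPM in control and 274.5, 260.3 and 313.9 CPM in NSKO mice. *Eomes*, which marks unipolar brush cells, a class of excitatory interneurons of the granular layer, was at 33.8, 53.0 and 74.2 CPM in the same control mice and 41.9, 24.1 and 37.4 CPM in the NSKO mice. *Eomes* and *Cacna1e* both had their highest value in control mouse 3. Both were lowest in NSKO mouse 2, but *Cacna1e* was nearly as low in control mouse 1. Of the markers listed with *Eomes*, *Lmx1a* was also lowest in NSKO mouse 2 (1.49 CPM) but highest in control mouse 2 (2.29 CPM). *Slc6a5* was highest in control mouse 1 (33.5 CPM) and lowest in control mouse 2 (23.1 CPM). The part of unipolar brush cells in the level of *Cacna1e* was not tested.

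The beta subunits, which bring the pore to the membrane and set its gating, were led by *Cacnb4*, the gene mutated in lethargic mice. Its CPM was 376.2, 344.8 and 366.0 in control and 402.2, 360.9 and 357.2 in NSKO mice, with overlapping genotypes (log2 fold change 0.04, SE 0.06). *Cacnb4* held 65.5% ± 1.62 of the beta subunit level per kb in control and 66.6% ± 1.94 in NSKO mice. *Cacnb3* followed with 22.3% and 21.9%, *Cacnb1* with 8.10% and 7.20%, and *Cacnb2* with 4.14% and 4.28%. *Cacnb1* had the lowest log2 fold change of all members, -0.16 (SE 0.09, adjusted p = 0.9676 by edgeR), with 21.6 to 23.4 CPM in control and 19.3 to 22.1 CPM in NSKO mice. *Cacnb2* and *Cacnb3* were at 0.06 and -0.01.

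The alpha2delta subunits, extracellular proteins that raise the number of channels at the surface, were led by *Cacna2d2*, the gene mutated in ducky mice, with 67.0% ± 0.63 of the level per kb in control and 66.6% ± 0.83 in NSKO mice. Its CPM was 154.9, 163.6 and 163.0 in control and 147.7, 154.3 and 161.8 in NSKO mice, and the genotypes overlapped. *Cacna2d1*, a receptor of the drug gabapentin, was at 64.3, 67.6 and 63.7 CPM in control and at 61.1, 61.1 and 58.0 CPM in NSKO mice. All 3 NSKO mice were below all 3 control mice, by a log2 fold change of -0.12 (SE 0.06, edgeR adjusted p = 0.9368). *Cacna2d3* was at 38.7 to 42.9 CPM in control and 41.5 to 45.5 CPM in NSKO mice.

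*Itpr1*, the IP3 receptor through which glutamate receptors release calcium in Purkinje cells, had the largest log2 fold change of the members. It was at 2845, 2086 and 2360 CPM in control mice 1 to 3 and at 2924, 2787 and 2735 CPM in NSKO mice 1 to 3. Control mouse 1 lay among the NSKO mice, so that the genotypes overlapped, while control mice 2 and 3 lay below all of them. The spread was wider in control (SD 384) than in NSKO mice (SD 97.9). The log2 fold change was 0.21 (SE 0.09, 95% interval 0.03 to 0.40, edgeR unadjusted p = 0.0285, adjusted p = 0.8845).

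*Itpr1* passed the threshold without control mouse 1 and with no filter on low counts, and in no other alternative run. Its unadjusted p by edgeR was not below 0.05 without control mouse 2, control mouse 3 or NSKO mouse 1. The same held for its unadjusted p by the DESeq2 Wald test. Without control mouse 1 the log2 fold change came to 0.34 with an adjusted p of 0.04325, the 1 member past the threshold beside 38 of 16621 genes (0.229%). Without control mouse 2 the log2 fold change was 0.11 (adjusted p = 0.9997). With no filter on low counts the log2 fold change was 0.22 and the adjusted p 0.007925, again the 1 member past the threshold, beside 178 of 27187 genes (0.655%). The Purkinje cell marker sum of control mice 1 to 3 was 2805, 2862 and 2821 CPM, with the lowest sum in the control mouse with the highest *Itpr1*; the part of these cells in the spread of *Itpr1* was not tested. *Itpr1* lies on chromosome 6, 108213096 to 108551109, plus strand (GRCm38), and 2 short genes annotated on the opposite strand, *Gm44101* and *Gm44040*, overlap its exons. Whether strand was used in the counting is not given in the sources used here.

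**Figure D3:**
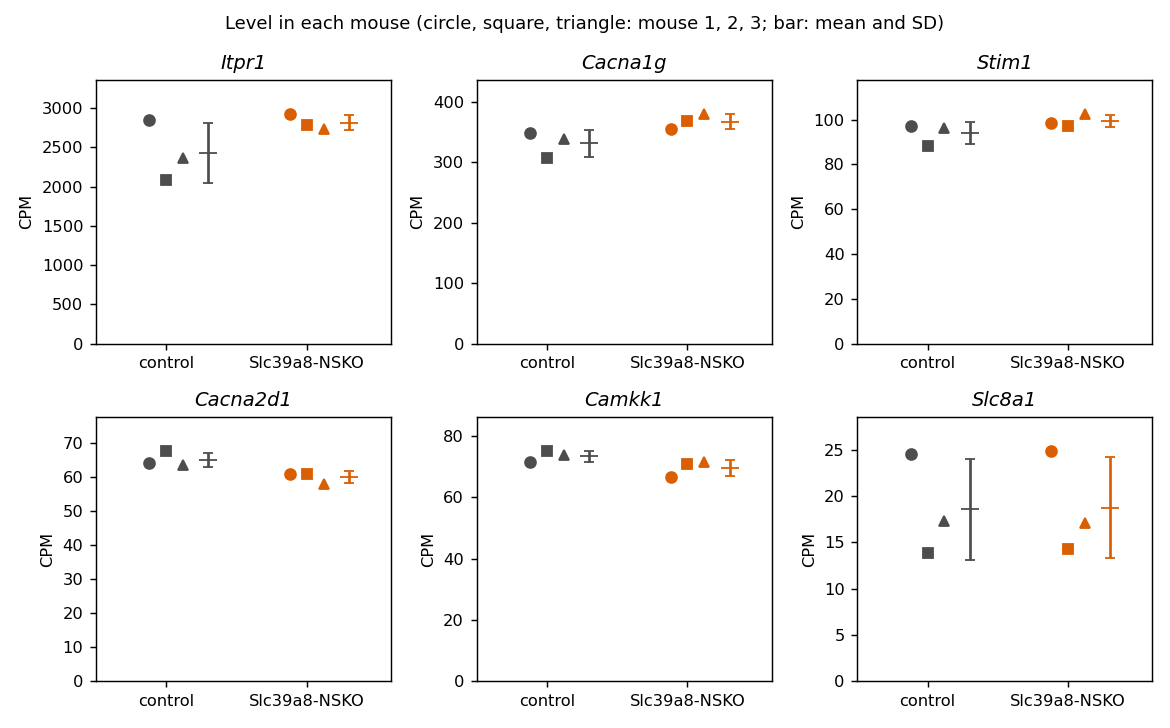
CPM in each mouse for *Itpr1*, the 4 genes whose genotypes do not overlap (*Cacna1g*, *Stim1*, *Cacna2d1*, *Camkk1*) and *Slc8a1*, the gene that varied most; axes start at 0. Circles, squares and triangles are mice 1, 2 and 3 of a genotype, and bars show mean and SD of 3 mice. Control mouse 1 lies with the NSKO mice for *Itpr1*, and for *Slc8a1* the genotypes repeat the same order of mice.

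*Itpr1* made up 96.8% ± 0.68 of the IP3 receptor level per kb in control and 97.2% ± 0.14 in NSKO mice, the most one-sided of the families. *Itpr2* and *Itpr3*, which are better known from astrocytes and from secretory and taste cells, were at 19.2 to 22.2 CPM and 23.6 to 29.5 CPM over the 6 mice, with log2 fold changes of 0.04 and 0.06.

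The ryanodine receptors, which calcium itself opens, were at log2 fold changes of -0.10 (*Ryr1*), -0.07 (*Ryr2*) and -0.07 (*Ryr3*), none past the test. *Ryr2*, also the main release channel of the heart, led the family with 61.7% ± 2.75 in control and 62.2% ± 2.98 in NSKO mice. Its CPM was 224.1, 236.3 and 207.2 in control and 227.7, 196.9 and 212.8 in NSKO mice, with overlap. *Ryr1*, the release channel of skeletal muscle, made up 28.3% and 27.9%, and *Ryr3* 9.95% and 9.91%.

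Heart muscle also uses *Ryr2*, *Atp2a2* and *Slc8a1*, and some cardiac markers differed between genotypes in these libraries. The summed level of 7 cardiac markers was 3.08 to 4.17 CPM in control and 12.5 to 14.4 CPM in NSKO mice, and 3 of them (*Myh6*, *Actc1* and *Tnnt2*) passed the test. *Myl7* was at 0 in every control mouse and at 0.11 to 0.15 CPM in NSKO mice. *Myh7* had the opposite direction, with 0.39 to 0.83 CPM in control and 0.15 to 0.51 CPM in NSKO mice, *Tnni3* overlapped at 0.82 to 1.48 and 0.87 to 1.70 CPM, and *Pln*, the inhibitor of the pump that *Atp2a2* encodes, was at 0.37 to 1.25 CPM over the 6 mice. The 3 calcium genes overlapped between genotypes, at log2 fold changes of -0.07 (*Ryr2*), 0.05 (*Atp2a2*) and 0.00 (*Slc8a1*).

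Of the genes that refill the store, *Stim1* encodes the sensor that reports an empty store, and *Orai1* the channel it opens. *Stim1* was at 97.0, 88.2 and 96.3 CPM in control mice 1 to 3 and at 98.5, 97.1 and 102.4 CPM in NSKO mice 1 to 3. The genotypes did not overlap, but NSKO mouse 2 stood only just above control mouse 1, and the log2 fold change of 0.08 (SE 0.06, edgeR adjusted p = 0.9937) was near its standard error. *Stim2*, a second sensor, was at 35.9 to 41.6 CPM in control and 37.7 to 42.9 CPM in NSKO mice. *Orai1* was at 7.51 to 10.5 CPM and 6.80 to 9.50 CPM, and with 108 to 188 counts per mouse its log2 fold change of -0.14 had an SE of 0.16.

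The pumps of the store were led by *Atp2a2*, with 1057, 983 and 1038 CPM in control and 1125, 1070 and 1001 CPM in NSKO mice. It held 74.0% ± 0.08 of the family level per kb in control and 73.9% ± 2.04 in NSKO mice, and *Atp2a3*, which Purkinje cells are known to express, held the rest. Their log2 fold changes were 0.05 and 0.06 (SE 0.06 for each).

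All 4 plasma membrane pumps had log2 fold changes above 0, at 0.10 (*Atp2b1*), 0.05 (*Atp2b2*), 0.14 (*Atp2b3*) and 0.11 (*Atp2b4*), and none passed the test. For each of the 4, control mouse 2 was the lowest mouse and NSKO mouse 1 the highest. With a mouse left out the values ranged from 0.01 to 0.17, 0.01 to 0.09, 0.00 to 0.26 and 0.03 to 0.19, in the same order of genes. *Atp2b2*, whose loss gives ataxic and deaf mice, led with 805.9, 724.0 and 758.0 CPM in control and 820.7, 763.0 and 786.4 CPM in NSKO mice. *Atp2b3* varied more, with 238.1, 177.4 and 201.6 CPM in control and 267.4, 198.8 and 212.8 CPM in NSKO mice. In both genotypes mouse 1 was the highest and mouse 2 the lowest for both genes. The family shares were 50.4% and 49.1% for *Atp2b2*, 35.4% and 36.6% for *Atp2b3*, 11.1% and 11.2% for *Atp2b1*, and 3.10% and 3.16% for *Atp2b4*.

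The sodium-calcium exchangers, which use the sodium gradient to carry calcium out, were led by *Slc8a2* with 204.3, 195.1 and 192.8 CPM in control and 210.1, 202.6 and 196.2 CPM in NSKO mice. It held 84.2% ± 1.87 and 83.2% ± 1.26 of the family level per kb, and its log2 fold change was 0.04 (SE 0.05). *Slc8a3* was at 27.3 to 36.1 CPM in control and 33.3 to 38.3 CPM in NSKO mice (log2 fold change 0.17, SE 0.10, edgeR adjusted p = 0.9743). *Slc8a1*, the exchanger of the heart, had the widest spread of all members, with a coefficient of variation of 26.2% over the 6 mice beside a median of 6.14% over the members.

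*Slc8a1* was at 24.6, 13.8 and 17.3 CPM in control mice 1 to 3 and at 24.8, 14.3 and 17.1 CPM in NSKO mice 1 to 3. The same numbered mice of both genotypes were thus nearly equal, and the log2 fold change was 0.00 (SE 0.20). Libraries of the same number also stood alike in their transcript length. For the 909 genes tested with a longest transcript of 8 kb or more, the median log2 deviation from the mean of 6 mice was 0.05, -0.05 and 0.01 in control mice 1 to 3 and 0.05, -0.06 and 0.01 in NSKO mice 1 to 3. The longest transcript of *Slc8a1* has 18464 bases. The part of transcript length in its spread was not tested. With an offset for transcript length, chosen after seeing the data, the log2 fold change of *Itpr1* was 0.22 (edgeR adjusted p = 0.6402) and 0 members passed the threshold, with 2 members at an unadjusted p below 0.05.

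**Figure D4:**
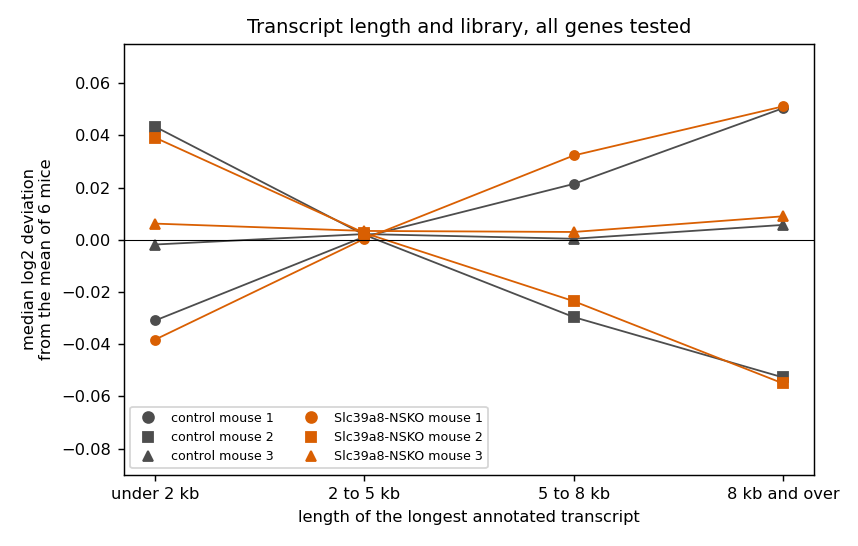
Median log2 deviation of all genes tested from the mean of the 6 mice, by length of the longest annotated transcript (x axis), for each mouse. Grey lines are control and orange lines NSKO mice. At 8 kb and over, mouse 1 of both genotypes lies near 0.05 and mouse 2 near -0.05, so that the lines group by number, not by genotype.

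Control mouse 2 was the lowest of the 6 mice in 19 of 42 members, beside 21.97% of all genes tested, and NSKO mouse 1 was the highest in 15, beside 18.41%. Without control mouse 2, 0 members had an edgeR unadjusted p below 0.05, beside 4.33% of all genes tested, and without control mouse 1, 8 members did, beside 8.60%. The median log2 fold change over the members was 0.0144 without control mouse 2 and 0.0074 without NSKO mouse 1.

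Calmodulin, the sensor that binds calcium for the kinases, was measured here from *Calm2* and *Calm3*, the highest and second highest members per kb. *Calm2* was at 1269, 1343 and 1212 CPM in control and 1247, 1316 and 1193 CPM in NSKO mice (log2 fold change -0.03, SE 0.06). *Calm3* was at 1265, 1168 and 1155 CPM and at 1242, 1247 and 1219 CPM (log2 fold change 0.05, SE 0.05). Both overlapped between genotypes. The share of *Calm2* in their sum per kb was 63.8% ± 1.61 in control and 62.6% ± 0.89 in NSKO mice.

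These genes make the same protein of 149 residues, which raises the question of whether their reads can be told apart. Over the 450 coding bases of the GENCODE transcripts of GRCm38, *Calm2* and *Calm3* differ at 78 bases (82.67% identity), 74 of them at the third codon base, and the longest run they share is 17 bases, far below the read length. The counts of both genes were whole numbers in every mouse. The first 150 coding bases are shown for both, from the start codon and 5′ to 3′, with the 23 bases at which they differ in capitals.
Calm2: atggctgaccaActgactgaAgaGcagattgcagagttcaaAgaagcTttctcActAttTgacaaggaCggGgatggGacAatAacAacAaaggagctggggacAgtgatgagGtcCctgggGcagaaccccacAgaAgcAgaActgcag
Calm3: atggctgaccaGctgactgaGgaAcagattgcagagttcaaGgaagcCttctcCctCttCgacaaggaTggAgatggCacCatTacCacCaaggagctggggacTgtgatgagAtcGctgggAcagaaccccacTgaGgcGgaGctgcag

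The CaM kinase II genes, whose products hold a trace of past calcium signals at synapses, were led by *Camk2b*, the isoform known to prevail in the cerebellum. *Camk2b* was at 669.1, 689.7 and 649.1 CPM in control and 684.6, 652.0 and 661.1 CPM in NSKO mice. It was the steadiest member, with a coefficient of variation of 2.51% over the 6 mice and a log2 fold change of -0.01 (SE 0.05). Its share of the family per kb was 63.9% ± 1.57 in control and 63.4% ± 0.66 in NSKO mice, with *Camk2g* at 18.3% and 18.3%, *Camk2a* at 11.0% and 11.9% and *Camk2d* at 6.72% and 6.44%. *Camk2a*, which prevails in the forebrain and in the cerebellum is known from Purkinje cells, was at 86.2 to 104.3 CPM in control and 95.1 to 106.5 CPM in NSKO mice (log2 fold change 0.11, SE 0.07, edgeR adjusted p = 0.9937). *Camk2d* and *Camk2g* were at -0.06 and 0.00.

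**Figure D5:**
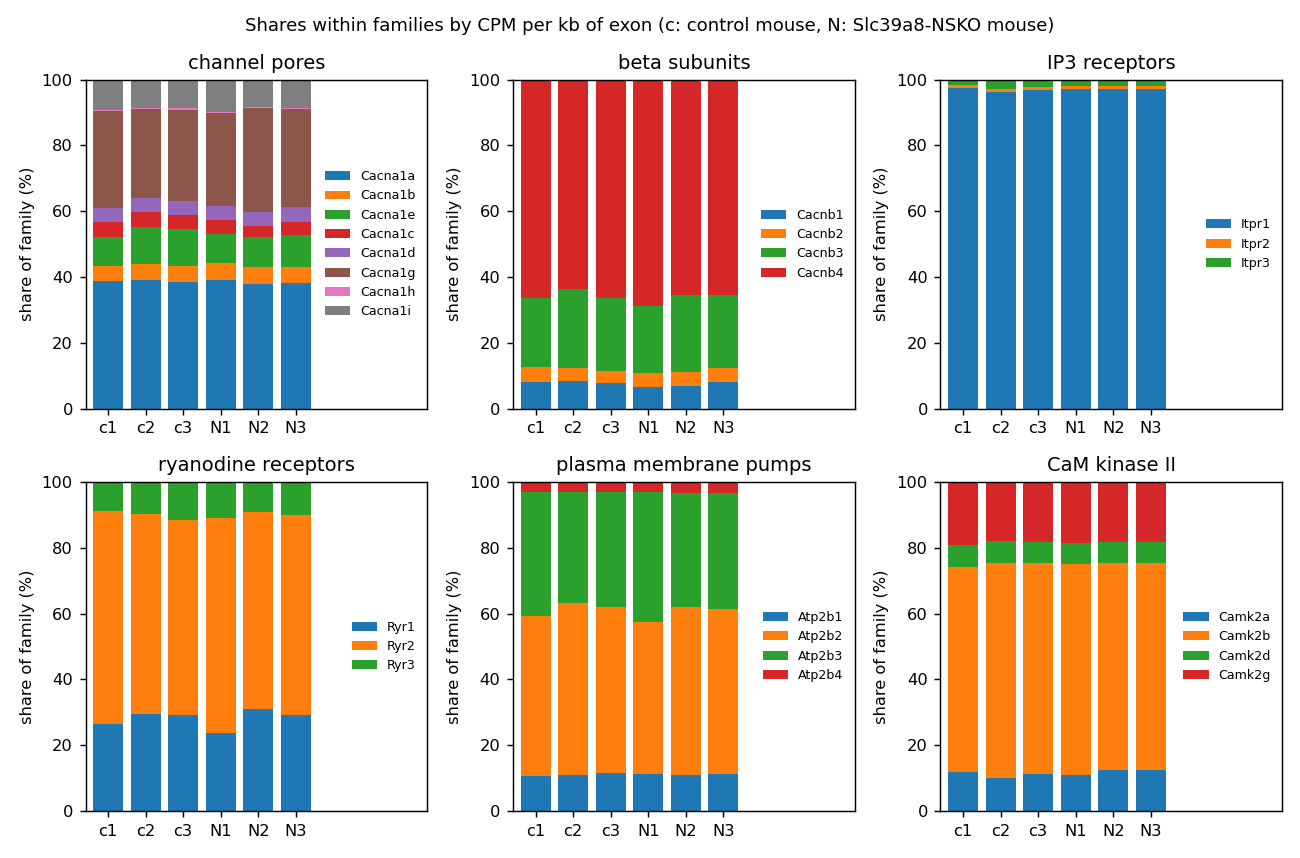
Share of each gene in its family, in percent of the summed CPM per kb of exon, as stacked bars for control mice 1 to 3 (c1 to c3) and NSKO mice 1 to 3 (N1 to N3), for 6 families. Bars of one family look alike in the 6 mice, with *Itpr1* near 97% of the IP3 receptors.

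In the kinase cascade, CaM kinase kinases switch on CaM kinase IV. *Camk4*, known from granule cells, was at 749.3, 712.4 and 726.2 CPM in control and 724.5, 648.0 and 698.9 CPM in NSKO mice, with overlap (log2 fold change -0.08, SE 0.05, edgeR adjusted p = 0.9937). *Camkk1* was at 71.5, 75.0 and 74.0 CPM in control and 66.6, 71.1 and 71.4 CPM in NSKO mice. The highest NSKO mouse lay just below the lowest control mouse, at 71.45 against 71.47 CPM, and the log2 fold change was -0.08 (SE 0.06, adjusted p = 0.9937). *Camkk2* was at 332.5 to 364.6 CPM and 327.7 to 372.7 CPM, with a log2 fold change of 0.01.

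Another measure of gene length changed the shares but not which gene led each family. Among the pores it put the L-type gene *Cacna1c* (4.83%) above *Cacna1d* (4.22%), and both above the N-type gene *Cacna1b* (3.83%). It also put *Camk2d* above *Camk2a* (12.4% beside 7.95%), *Cacnb2* above *Cacnb1* (8.80% beside 8.12%) and *Cacna2d3* above *Cacna2d1* (24.2% beside 18.0%). Each of these orders was the reverse of that by all exons. Divided by the longest transcript in place of all exons, the largest shift among the leading genes was that of *Cacna2d2*, from 66.8% to 57.8% as a mean over 6 mice, next to *Cacnb4*, from 66.1% to 57.3%.

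CREB, the target of CaM kinase IV, binds the cAMP response element TGACGTCA and its shorter form TGACG, and these letters were looked for on both strands of the 250 bases before the start of each gene in the RefSeq promoters of GRCm38.p6. An entry was found for 31 of the 42 members and for 27025 genes in all. The full element was in 0 of the 31, beside 1.769% of all genes, and the shorter form, which also lies within the full one, was in 10 of the 31 (32.258%), beside 19.785%. The 10 were *Cacna1b*, *Cacna1c*, *Cacna1i*, *Cacna2d1*, *Cacnb2*, *Slc8a3*, *Stim1*, *Orai1*, *Calm3* and *Camkk1*. A match of letters is a description and no measure of binding. Of the 4 members whose genotypes did not overlap, 3 have an entry, and these 3 are shown, 5′ to 3′ along the gene's strand, with the TGACG in capitals. All 3 genes are on the plus strand, at chr7:102267569-102267818 (*Stim1*), chr5:15934441-15934690 (*Cacna2d1*) and chr11:73018738-73018987 (*Camkk1*), and the element begins at position -223, -146 and -166, counted from -1 for the base before the start.
Stim1: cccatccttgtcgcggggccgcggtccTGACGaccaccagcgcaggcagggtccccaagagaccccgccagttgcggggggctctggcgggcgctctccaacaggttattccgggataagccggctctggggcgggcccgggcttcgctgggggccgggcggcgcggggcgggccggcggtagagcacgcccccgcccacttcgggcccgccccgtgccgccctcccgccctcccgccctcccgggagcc
Cacna2d1: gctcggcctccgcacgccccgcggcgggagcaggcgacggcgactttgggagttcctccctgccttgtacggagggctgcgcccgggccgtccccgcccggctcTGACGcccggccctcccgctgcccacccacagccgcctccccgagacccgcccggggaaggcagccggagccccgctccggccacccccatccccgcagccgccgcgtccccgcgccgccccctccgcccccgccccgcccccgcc
Camkk1: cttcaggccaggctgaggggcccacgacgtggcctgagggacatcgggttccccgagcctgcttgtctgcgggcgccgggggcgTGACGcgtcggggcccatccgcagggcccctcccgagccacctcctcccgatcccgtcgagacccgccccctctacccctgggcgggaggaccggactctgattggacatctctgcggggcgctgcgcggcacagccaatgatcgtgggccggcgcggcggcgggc

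Of these 3, *Stim1* was higher and *Cacna2d1* and *Camkk1* were lower in NSKO mice, none past the test.

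Beyond the 42, 66 other genes of calcium signalling were listed, and 64 of them were tested. None passed the threshold, and 2 had an edgeR unadjusted p below 0.05, beside 5.39% of all genes tested. The median log2 fold change was 0.03 beside 0.00 over all genes tested. It was above 0 in 44 of the 64 (68.75%), beside 50.48% of all genes tested. Between the lists that make up the 66, this share ran from 45.45% to 92.31%. The highest share was that of the 13 genes listed for receptor-driven IP3 production, 12 of them above 0 with a median of 0.04. Of the 2 with a low unadjusted p, *Nalcn*, a sodium leak channel, was at 80.9, 66.1 and 78.0 CPM in control and 90.1, 81.7 and 81.3 CPM in NSKO mice (log2 fold change 0.17, SE 0.08, edgeR adjusted p = 0.9144). *Atp2c1*, the Golgi pump that carries both calcium and manganese, was at 105.6 to 116.9 CPM in control and 111.1 to 114.7 CPM in NSKO mice (log2 fold change -0.01), and was singled out after its values were seen.

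The summed level of 5 Bergmann glia and astrocyte markers was 2233 to 2561 CPM in control and 2604 to 2669 CPM in NSKO mice, and 2 of the 5 had an edgeR unadjusted p below 0.05 with none past the threshold. The sum of 4 microglia markers was 41.6 to 47.7 CPM and 47.9 to 49.3 CPM, with none of the 4 at an unadjusted p below 0.05. The sum of 5 oligodendrocyte markers overlapped, at 3831 to 4354 CPM in control and 3508 to 4072 CPM in NSKO mice, with all 5 log2 fold changes below 0. The part of these cells in the level of *Itpr2* was not tested.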

How the data were processed

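RNA-Seq covered the cerebellum of 6 mice, 3 per genotype. The authors made cDNA with oligo-dT, aligned paired-end reads with STAR (build mm10, per the labels) and deposited expected counts per gene, which the labels tie to RSEM, without normalization; versions are not given in the sources used here. The estimated counts were rounded and tested in R 4.3.3 with edgeR 4.0.16 (quasi-likelihood test, TMM, filterByExpr, no covariate, threshold of 0.05), tried first on simulated data. The 92 spike-in entries were left out. Names, exons and coding bases came from GENCODE on GRCm38 (53620 genes matched, 51464 in the same version).

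The 42 genes and all lists were chosen with earlier results of these data known. Values in every mouse are given for members past the threshold, with an unadjusted p below 0.05 or with genotypes that do not overlap, and for the highest member per kb of each role. Those of *Cacna1e*, *Atp2b3* and *Slc8a1* were added after their values were seen. The counts of *Cacna1d*, *Cacnb4* and *Ryr3* were not whole in all 6 mice and those of *Cacnb2* in 2, as happens when reads are divided between genes, and the exons of 16 members overlap those of another gene. No pair of libraries agreed within sampling noise. Some single genes of the lists are not reported here.

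The alternatives were DESeq2 1.42.0, limma-voom (limma 3.58.1), RLE, library size alone, other filters (none, or 10 counts in every mouse), unrounded counts, a replicate block, each mouse left out, a threshold of 0.1, the longest transcript as length and, chosen after seeing the data, an offset for transcript length.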

Additional observations from a re-analysis of the deposited data

How the results depend on the processing

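The number of members past the threshold was 0 with DESeq2, limma-voom, RLE, library size alone, at least 10 counts in every mouse, counts not rounded, the replicate block, the transcript length offset and a threshold of 0.1, and it was 1 with no filter on low counts (*Itpr1*) and 0 to 1 with a mouse left out (1 without control mouse 1, again *Itpr1*). Of the other pathway genes, 1 (*Nrgn*, adjusted p = 0.03787) passed with no filter and 0 in every other alternative run; the cause was not tested. The number of members with an unadjusted p below 0.05 was 2 as reported, 1 with DESeq2, 4 with no filter, 5 with the replicate block and 0 to 8 with a mouse left out, where the share of all genes was 5.39%, 1.96%, 5.45%, 7.44% and 4.33% to 8.60%. Non-overlapping genotypes were found in 4 members as reported, 3 with library size alone, and 7 to 13 with a mouse left out, when fewer mice have to be parted and 18.3% to 25.6% of all genes are so. By longest transcript, shares as means over 6 mice were 41.5% for *Cacna1a* (38.5% by all exons), 57.3% for *Cacnb4* (66.1%), 57.8% for *Cacna2d2* (66.8%), 98.2% for *Itpr1* (97.0%), 67.0% for *Ryr2* (61.9%), 72.7% for *Atp2a2* (74.0%), 52.3% for *Atp2b2* (49.8%), 66.4% for *Calm2* (63.2%), 65.1% for *Camk2b* (63.7%) and 74.1% for *Camk4* (81.0%).

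Of the 42 log2 fold changes, 28 kept their sign in all 15 alternative fits. Those of *Slc8a1* and *Camk2g* were 0.00 as reported, without a direction, and ranged from -0.26 to 0.27 and from -0.03 to 0.05. The other 12 changed sign only with a mouse left out, with ranges of -0.19 to 0.07 for *Cacna1h*, -0.02 to 0.14 for *Cacna1i*, -0.01 to 0.17 for *Cacnb2*, -0.04 to 0.03 for *Cacnb3*, -0.01 to 0.07 for *Cacnb4*, -0.01 to 0.09 for *Itpr2*, -0.01 to 0.15 for *Itpr3*, -0.19 to 0.02 for *Ryr3*, -0.02 to 0.08 for *Stim2*, -0.06 to 0.01 for *Calm2*, -0.03 to 0.01 for *Camk2b* and -0.03 to 0.06 for *Camkk2*. Leaving out a mouse moved the value of *Itpr1* between 0.11 and 0.34. The median over the members was 0.0376 to 0.0447 in the alternative fits on all mice and 0.0074 to 0.0548 with a mouse left out.

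The replicate numbers were not taken as pairs, since the labels name nothing shared. The deviations of same-numbered mice correlated at 0.142, 0.116 and 0.01 for mice 1 to 3. Pairs of unlike number ranged from -0.177 to 0.067, so that the values of mice 1 and 2 were above all of these. Control mouse 3 correlated best with *Slc39a8*-NSKO mouse 1 (0.036). Whether same-numbered libraries share a step was not tested. With the replicate block, *Itpr1* had a log2 fold change of 0.22 (edgeR adjusted p = 0.3438), and no member passed. The depth limits the genes of few counts, *Cacna1h* and *Orai1*, whose intervals reach beyond 1.3-fold.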
